A study of Mus musculus with 6 samples.

Results

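RNA bound to Ago2 was immunoprecipitated from myocytes derived from mouse satellite cells (MSC) and sequenced, and 2633 regions of the genome carried a peak in both miR-222-IPs but in no control-IP of replicates 1, 2 and 4. These 2633 intervals are described here. They were chosen from 41363 intervals, obtained by merging the peaks of 5 libraries wherever these overlapped or touched, and they make up 6.37% of them. The values that chose them are the presence or absence of a listed peak, so their occurrence in the miR-222-IPs alone is the definition of the set and not a result. Over an annotated exon lay 2546 of them, which is 6.54% of the 38946 merged intervals over exons, and they belonged to 1911 genes, 16% of the 11961 genes to which an exonic interval was assigned.

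All libraries came from MSC, primary muscle progenitors, kept for 30 h in differentiation medium. They were then transfected with miR-222 or with a control duplex against GFP (siGFP) and lysed 16 h later. The dose was 10 nM each according to the labels, whereas the paper's methods give a higher dose for this step. MiR-222-IP replicate 1, called the first miR-222-IP below, belonged to an experiment with control-IP replicates 1 and 2. MiR-222-IP replicate 2, called the second miR-222-IP, belonged to another with control-IP replicates 3 and 4. Strain and age of the mice are not given in the labels, no total RNA was compared here, and each experiment held 1 miR-222-IP.

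Ago2 is the protein of the RNA-induced silencing complex (RISC) that holds a microRNA. The microRNA pairs through its seed, bases 2 to 8 from the 5′ end, with complementary sites of mRNAs, most often in the 3'UTR, and the complex then recruits the CCR4-NOT deadenylase through TNRC6 proteins, which lowers translation and stability of the mRNA. MiR-221 and miR-222 are encoded next to each other, share their seed and fall in level as myoblasts differentiate.

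The mature sequences (RefSeq, GRCm38.p6) are shown with the seed in capitals, because the search for sites in the intervals rests on these letters. MiR-222-3p lies at chrX:19146901-19146923 and miR-221-3p at chrX:19146307-19146329, both on the minus strand.
miR-222-3p: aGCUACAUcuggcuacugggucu
miR-221-3p: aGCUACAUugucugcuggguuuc

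The 7-mer ATGTAGC, complementary to the seed, was searched for on the strand of the gene. The following windows of 30 bases (GRCm38, strand of the gene) show it in capitals. They were chosen as the sites of Rbm24, the muscle splicing regulator that the study followed up, and of Irf2 and Dicer1 among known targets. The other 4 belong to members with the 7-mer that rank high by the smaller score of the miR-222-IPs.
Rbm24, first site, chr13:46429708-46429737, plus strand: tacggagtgagcaatATGTAGCttgaatta
Rbm24, second site, chr13:46430522-46430551, plus strand: attcagtaggtctagATGTAGCatattaaa
Irf2, chr8:46847378-46847407, plus strand: aacttttatgagctcATGTAGCaatcaaat
Dicer1, chr12:104723937-104723966, minus strand: ttatcaatgattgtaATGTAGCtgtacatt
Paip2b, chr6:83808161-83808190, minus strand: tatcctatcattagtATGTAGCtattgtca
Pogz, chr3:94880778-94880807, plus strand: atggaaagaaagaatATGTAGCtgacaaac
Lonp2, chr8:86714032-86714061, plus strand: ggcttgtgcgctcagATGTAGCcatgactg
E2f3, chr13:29907034-29907063, minus strand: ttttttctgtcgtacATGTAGCtctgtctg
The sites of Rbm24, Irf2, Paip2b, Pogz and E2f3 lie in the 3'UTR, and those of Dicer1 and Lonp2 in coding sequence. The 7-mer is followed by A, which makes it an 8-mer, in Irf2 and in the second site of Rbm24. The peaks of both miR-222-IPs contained each of these sites except that of Paip2b, which lay in the peak of the second miR-222-IP alone.

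The lists of the 5 libraries differed in length and in the marker genes under their peaks. They held between 10579 peaks in control-IP replicate 1 and 37762 in the second miR-222-IP, so that members were 12.6% of the 20865 intervals of the first miR-222-IP and a smaller share of the 37613 of the second. Of 12 markers of myocytes, such as Myog, Ttn and Ckm, the second miR-222-IP had peaks over all, at 124 of 124 intervals. The other 4 libraries had peaks at 19 to 33 of these intervals and over 8 to 10 of the 12 genes. Ttn alone held 63 of the 124 intervals. Myog and Chrng had no peak outside the second miR-222-IP and the wide peaks of control-IP replicate 3. In contrast, 12 markers of microglia and macrophages, P2ry12, Tmem119 and Csf1r among them, had peaks in all 5 libraries. These peaks lay at 84 to 100 of 101 intervals in each, and the list was chosen after the values were seen. A list of 10 astrocyte and oligodendrocyte genes, chosen in the same way, had peaks over 9 or 10 genes in each library, at 33 to 60 of 66 intervals. The markers of microglia, macrophages, astrocytes and oligodendrocytes go against the label of the cells, whereas peaks over most myocyte markers were also present in each library. In 4 of the 5 libraries the peaks over myocyte markers covered few of their intervals. Fewer cells of a type and less RNA per cell cannot be told apart in such samples. No member lay among the 101 intervals of the microglia and macrophage list. Members were 3 of the 66 intervals of the astrocyte and oligodendrocyte list and 7 of the 124 of the myocyte list. Of all exonic intervals, 6.54% were members. Shorter lists of immune (Ptprc, Cd68, Adgre1 and Csf1r) and endothelial markers held 2 members each, of 54 and 7 intervals. Those of fibroblasts and Schwann cells held none, of 3 and 6 intervals, and that of adipocytes had no interval. The part of these cells in the set was not tested. Without the second miR-222-IP, the rule would keep 3057 intervals called in the first but in no control-IP. Without the first, it would keep 15593.

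**Figure D1:**
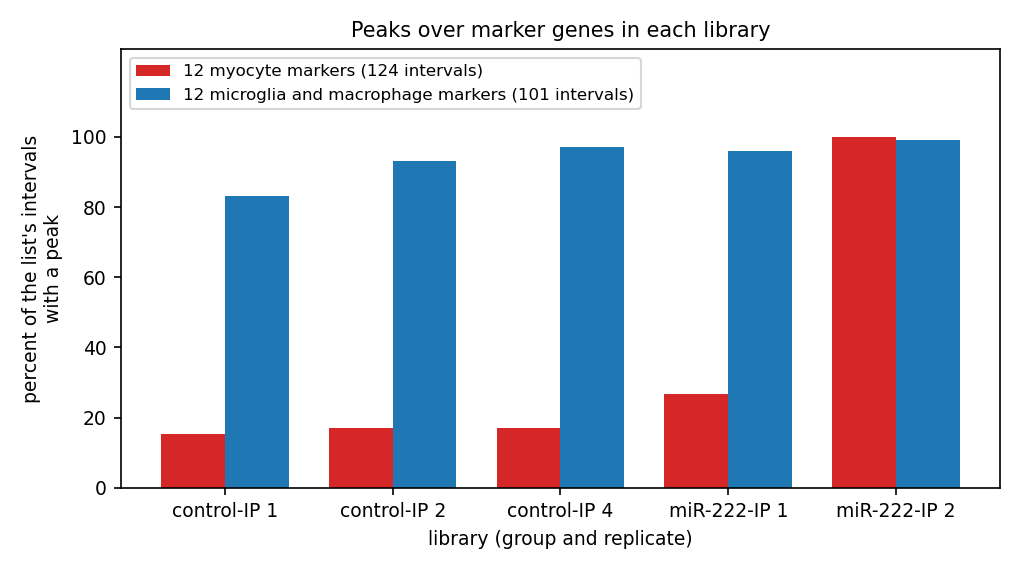
Percent of the intervals of a marker list (vertical axis) with a peak in each library (horizontal axis), for 12 myocyte markers with 124 intervals in red and for 12 microglia and macrophage markers with 101 intervals in blue. The red bar reaches all 124 intervals in the second miR-222-IP and stands for 19 to 33 intervals in the other libraries, whereas the blue bars stand for 84 to 100 of 101 intervals in all of them.

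The score of a peak is the −log10 p that the authors deposited, with a threshold of 20. It rises with enrichment and with the number of reads, which is unknown here, and it is not a fold change. The members had low scores, close to the threshold in the first miR-222-IP. In that library they ranged from 20.0 to 190 with a median of 23.9, and 1545 of them (58.7%) had a score under 25. The highest value, 190, was identical in 6 members, whose scores in the other miR-222-IP were 20.1 to 30.8. In the second miR-222-IP they ranged from 20.0 to 178 with a median of 36.3, and 327 (12.4%) had a score under 25. The score of the second miR-222-IP was the higher in 2314 members (87.9%). Across members the Spearman correlation of the 2 scores was 0.218, a description over 2633 intervals that share 2 libraries. Scores over 30 in both libraries were present in 351 members, over 40 in 42 and over 50 in 4.

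The scores of intervals called in both miR-222-IPs were higher with each further control-IP that also had a peak there. The median in the first miR-222-IP was 23.9 in the members, 27.6 in the 4513 intervals with a peak in 1 control-IP, 34.9 in the 5085 with 2, and 64.9 in the 7935 with all 3. In the second miR-222-IP the medians were 36.3, 46.5, 59.8 and 94.2. The reverse pattern, a peak in all 3 control-IPs and in neither miR-222-IP, was present in 4 intervals. It needs peaks in 3 libraries, among them control-IP replicate 1 with the shortest list, whereas a member needs peaks in 2. The count of 4 is therefore not a like comparison for that of the members. The lists of the miR-222-IPs are the longest, and the count of members therefore depends on the length of the lists. When each library was limited to its 10579 peaks of highest score, 233 intervals met the rule, and these overlapped 22 of the 2633 members. With a threshold of 30 in every list, 1712 intervals met it and overlapped 351 members. With a threshold of 50, 854 intervals met it and overlapped 4 members.

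**Figure D2:**
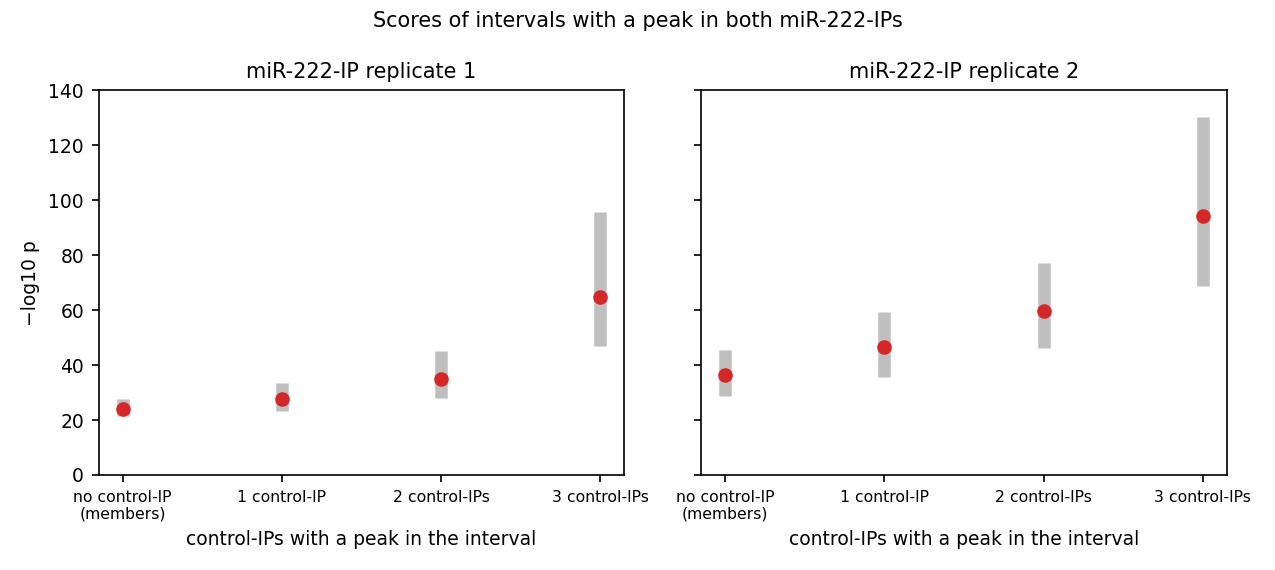
Median −log10 p (red points) with the range from the 25th to the 75th percentile (grey bars) in the first (left) and second (right) miR-222-IP, for intervals with a peak in both and in 0, 1, 2 or 3 of control-IP replicates 1, 2 and 4. The median is lowest in the members, 23.9 and 36.3, and highest where all 3 control-IPs also had a peak, 64.9 and 94.2.

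By the rule, the peaks of the 2 miR-222-IPs meet in each member. They overlapped by at least 50% of each in 2550 members (96.8%), which the rule did not require. The intervals were 173 to 2438 bp wide, with a median of 356 bp against 378 bp in all merged intervals. Their median GC content was 43.3%, against 46.6%. The nearest peak of a control-IP was at a median of 5348 bp. It was within 500 bp in 230 members (8.74%) and within 5000 bp in 1266 (48.1%).
At the threshold itself, Mboat7 (chr7:3691735-3692193) was called with a score of 20.0 in the first miR-222-IP and 22.3 in the second miR-222-IP, and Dctn5 (chr7:122133026-122133380) with 20.0 and 29.3. Just outside the set, an interval of Fgfr2 (chr7:130162758-130163470) had 26.5 and 26.0 in the miR-222-IPs and was kept out by a peak of 20.0 in control-IP replicate 4. An interval of Ssr2 (chr3:88579836-88580129) had 26.0 and 55.0 and was kept out by a peak of 20.0 in control-IP replicate 1.

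Control-IP replicate 3 was not used by the rule, because its peaks are wide and its list ends on chromosome 18, at 47281488. It lists peaks on 10 chromosomes, and none on chromosomes 2 to 9, 19 and X. In the regions it covers lay 1169 members, and 1139 of them (97.4%) were under one of its peaks. Of all merged intervals in these regions, 96.2% were. The remaining 1464 members (55.6%) lie where this library has no information. Requiring no peak of this library either would leave 1494 members, 30 of them in the regions it covers. Peaks of this library are given below for some of the named members only.

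**Figure D3:**
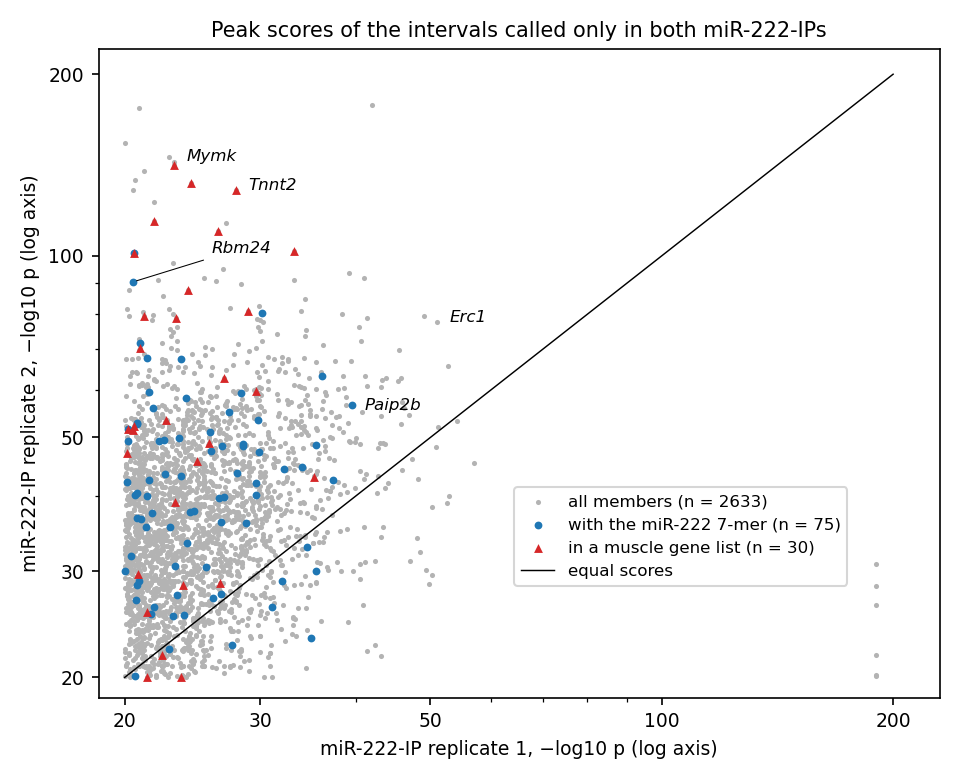
Score of each member in the first miR-222-IP (horizontal, −log10 p, log axis) and in the second miR-222-IP (vertical, −log10 p, log axis), with 75 members holding the 7-mer in blue, 30 members in muscle genes in red and the line of equal scores in black. Most points lie above the line and near the left edge, the median being 23.9 on the horizontal and 36.3 on the vertical axis, and the red triangles include Tnnt2 and Mymk near the top.

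The genes with a member were mostly genes with many intervals. Of the 1911 genes, 1796 were protein-coding, and 1477 had 1 member, 307 had 2 and 127 had 3 or more. The genes with a member had a median of 5 exonic intervals, against 2 in all genes. In 1513 of them (79.2%) another exonic interval had a peak in a control-IP, and among all genes with an exonic interval 81.1% had such an interval. The share of intervals that were members was 4.45% in genes with 1 interval and 7.96% in genes with 9 or more.
Dst and Macf1, which code for giant linkers between actin and microtubules, had the most members, 8 of 51 and 8 of 64 intervals. Dhx9, an RNA helicase, had 6 of 16, Dock2, an activator of Rac in blood cells, 6 of 39, and Eps15, an adaptor of endocytosis, 6 of 14. Phka2, a subunit of phosphorylase kinase, also had 6, of 23. In Dst the scores were between 20.6 and 30.4 in the first miR-222-IP and between 27.9 and 55.8 in the second miR-222-IP, and a peak of a control-IP was present at 22 of its intervals. Macf1 had peaks of a control-IP at 42 intervals.
No exonic interval had a peak of control-IP replicates 1, 2 or 4 in 398 genes (20.8%), and in 232 genes the member was the single exonic interval. With 3 members each, Arel1, Dbt, Mterf3, Scfd1, Slc25a12, Ttl and Wasl were the genes of this kind with most members. Slc25a12, a mitochondrial carrier of aspartate and glutamate, had scores of 23.3 to 30.0 in the first miR-222-IP and of 46.6 to 78.1 in the second. Mterf3, a regulator of mitochondrial transcription, had 20.8 to 27.9 and 40.3 to 55.9.
Where all 5 libraries had a peak, the score of a miR-222-IP can be compared with that of the control-IPs of its experiment. In the second experiment this is control-IP replicate 4 alone. The 1644 intervals of this kind in genes with a member had a median log2 ratio of scores of 0.16 (SD 0.52 across intervals) in the first experiment and of 0.10 (SD 0.49) in the second, relative to the median of all 7935. Before scaling the medians were 0.30 and 0.61. The SD describes single intervals and not the error of the median, and these medians were not tested. The genes were chosen by calls of the same libraries, so these ratios are not independent of the rule.

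Members lay mostly in coding sequence. Of the 2633, 1663 (63.2%) overlapped coding sequence and no untranslated part, against 52.5% of all merged intervals. Coding sequence and 3'UTR were overlapped together by 271 members (10.3%), against 16.0%. Wholly in a 3'UTR among the exonic parts lay 246 (9.34%), against 9.65%. A 5'UTR was overlapped together with other parts by 213 (8.09%), against 8.30%, and alone by 29. Exons of pseudogenes were overlapped by 89 (3.38%), against 4.85%, introns alone by 45 (1.71%), against 3.83%, and 42 lay outside genes. Reads of a processed pseudogene and of its parent gene can be exchanged in alignment, so the 89 are uncertain. The library kit was not stated to keep the strand, so the 10 members assigned to antisense genes cannot be told apart from the genes opposite.
The scores of the parts were compared by their medians. The median in the first miR-222-IP was 23.8 in members of coding sequence and 24.5 in members of the 3'UTR, and in the second miR-222-IP it was 35.6 and 36.2. Over all 10 parts the medians ran from 22.9 to 25.3 in the first and from 34.4 to 40.5 in the second, where the highest was that of the 271 members over coding sequence and 3'UTR. The 3'UTR members were the wider, with a median of 812.5 bp against 332 bp in coding sequence. Members reached beyond the exon as a rule, and 445 of the exonic members (17.5%) lay wholly within annotated exons, beside 8188 of all 38946 exonic intervals.

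**Figure D4:**
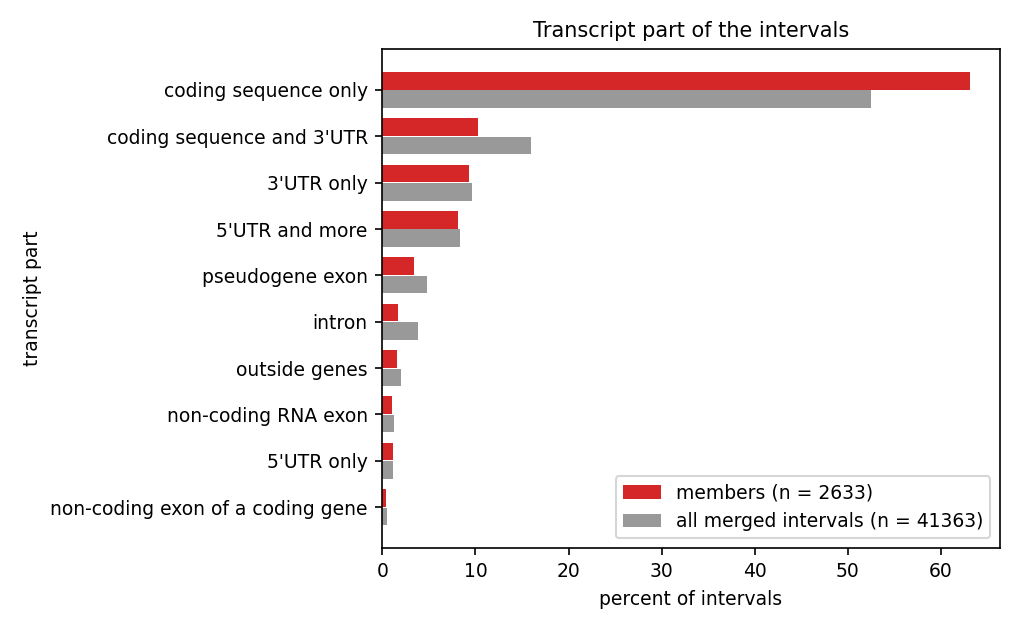
Percent of the 2633 members (red) and of all 41363 merged intervals (grey) in each transcript part. The bars for coding sequence only are the longest in both sets, 63.2% and 52.5%, and those for 3'UTR only are nearly equal, 9.34% and 9.65%.

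The 7-mer was present in 75 of 2546 exonic members (2.95%, exact binomial 95% interval 2.32 to 3.68%), and 2.55% of all exonic intervals held it. This interval covers counting error only and contains the value of all exonic intervals. Per length, members held 6.52 sites per 100 kb of interval and all exonic intervals 4.95. With an equal number of peaks per library, 12 of 227 exonic intervals that met the rule held the 7-mer (5.29%, interval 2.76 to 9.05%). The share was 2.86% in the intervals with a peak in 1 control-IP and 3.76% in those with a peak in all 5 libraries. Among members wholly in the 3'UTR it was 16 of 246 (6.50%), against 6.51% of all intervals of that part. Among those overlapping coding sequence and no untranslated part it was 2.22% against 1.53%, or 6.18 against 4.001 sites per 100 kb. Intervals of the latter kind can reach beyond the exon, so their sites need not lie in coding sequence. There were 37 such members with the 7-mer, whereas 12 sites of all members lay in coding sequence. The 6-mer TGTAGC was present in 10.9% of members and in 11.0% of all exonic intervals, and the 8-mer ATGTAGCA in 0.903% and 0.837%. Counting only 7-mers inside an annotated exon, 53 members (2.08%, interval 1.56 to 2.71%) and 1.95% of all exonic intervals held 1.
For comparison, the 7-mers of microRNAs that were not transfected were counted in the same way. That of the muscle microRNAs of the miR-1 family (ACATTCC) was present in 2.99% of members and 3.50% of all exonic intervals, and that of let-7 (CTACCTC) in 2.55% and 3.71%. That of miR-133 (GGACCAA) was present in 2.55% and 3.30%. Over all exonic parts together, the share for these 3 microRNAs was lower in members than in all exonic intervals, whereas for miR-222 it was the higher. Wholly in the 3'UTR the order was otherwise. There members had the higher share for the miR-1 family (6.91% against 6.19%), miR-133 (5.69% against 4.91%) and let-7 (6.50% against 5.54%). For miR-222 it was 6.50% against 6.51%. Members also differed from all merged intervals in transcript part, and these differences were not tested.
The 75 members held 79 sites in 75 genes. Of these sites, 33 were in a 3'UTR and not in coding sequence, 12 were in coding sequence and 23 lay outside the annotated exons of the gene. The site was an 8-mer in 23 cases, and 58 sites lay inside the peaks of both miR-222-IPs.
Members with the 7-mer were ranked by the smaller score of the 2 libraries. First came Paip2b, a partner of the poly(A)-binding protein, with 39.5 and 56.5 in the first and second miR-222-IP. Pogz, a chromatin protein (37.3 and 42.6), and Lonp2, a peroxisomal protease (36.2 and 63.2), followed. In the second miR-222-IP alone, others such as Tnnt3 (101) and Rbm24 (90.5) scored higher than Paip2b. E2f3, a transcription factor of the cell cycle, had 32.3 and 44.4, and Rufy3, an adaptor of vesicle transport, had 34.0 and 44.6. Tmem39a had 29.9 and 47.3 and Pdcl, a chaperone of G proteins, 29.9 and 53.4. The sites of Idh1 (34.6 and 32.9), Dock10 (30.2 and 80.4) and Anapc7 (29.7 and 42.0) lay outside the annotated exon, in the flank of the interval. Ube2n-ps1 (35.5 and 48.5) is a pseudogene. These scores were all under 40 in the first miR-222-IP, within the range of members without the site.

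Rbm24 was the only one of the 8 genes with an exonic interval that the study followed up to have a member, 1 of 30 intervals (3.33%, beside 6.54% of all exonic intervals). This member was the single exonic interval of Rbm24 (chr13:46429313-46431027). Nearly all of it lay in the 3'UTR and contained both sites shown above. Its score was 20.5 in the first miR-222-IP, barely over the threshold, and 90.5 in the second miR-222-IP. Control-IP replicates 1, 2 and 4 listed no peak there, whereas control-IP replicate 3 had a wide peak of 132 over it. At a threshold of 30 this interval would have kept its peak in the second miR-222-IP alone among the 5 libraries.
On a list of known miR-222 targets, 18 genes had an exonic interval, and 6 of these had a member (33.3%, beside 16% of all genes). In all, 10 of their 90 intervals were members (11.1%, beside 6.54% of all exonic intervals). Pik3r1, the regulatory subunit of PI3K, had 2 members, with 37.2 and 49.97 (chr13:101688929-101689573) and with 25.2 and 23.0. Hipk1, a nuclear kinase, also had 2, with 31.0 and 39.1 and with 28.1 and 36.6. Zeb2, a repressor of E-cadherin, had 20.5 and 32.5 in its 3'UTR, between intervals with control peaks.
Irf2, a repressor of interferon genes, had 20.7 and 52.9 at the end of its coding sequence and in the 3'UTR (chr8:46846914-46847447). The interval just upstream, which holds no 7-mer, had 43.0 and 33.9 in control-IP replicates 2 and 4 and 25.2 and 63.0 in the miR-222-IPs. Dicer1, the enzyme that cuts microRNAs from their precursors, had 3 members in coding sequence, with 24.5 and 55.4, 22.8 and 31.0, and 21.6 and 25.5, and the last of these held the site shown above. All 3 were covered by a peak of control-IP replicate 3 with 169.

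Gene lists differed in how many of their intervals were members. The share was 14.5% in the CCR4-NOT complex, 11.3% in RNA helicases of the Ddx and Dhx families, 9.79% in Zfp zinc finger genes and 9.42% in centrosome genes of the Cep family. It was 8.65% in SR, hnRNP and Rbm genes, 7.88% in chromatin regulators and 7.09% in the microRNA machinery. Against these stood 3.83% in the sarcomere list, 3.24% in subunits of the respiratory chain, 1.08% in cytosolic ribosomal proteins (2 of 186) and 0 of 17 in collagens. All exonic intervals together had 6.54%. These shares also reflect how the other intervals of a list were called. Of the 186 ribosomal protein intervals, 128 had a peak in all 5 libraries, and of the 339 sarcomere intervals, 278 had a peak in the second miR-222-IP alone.

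**Figure D5:**
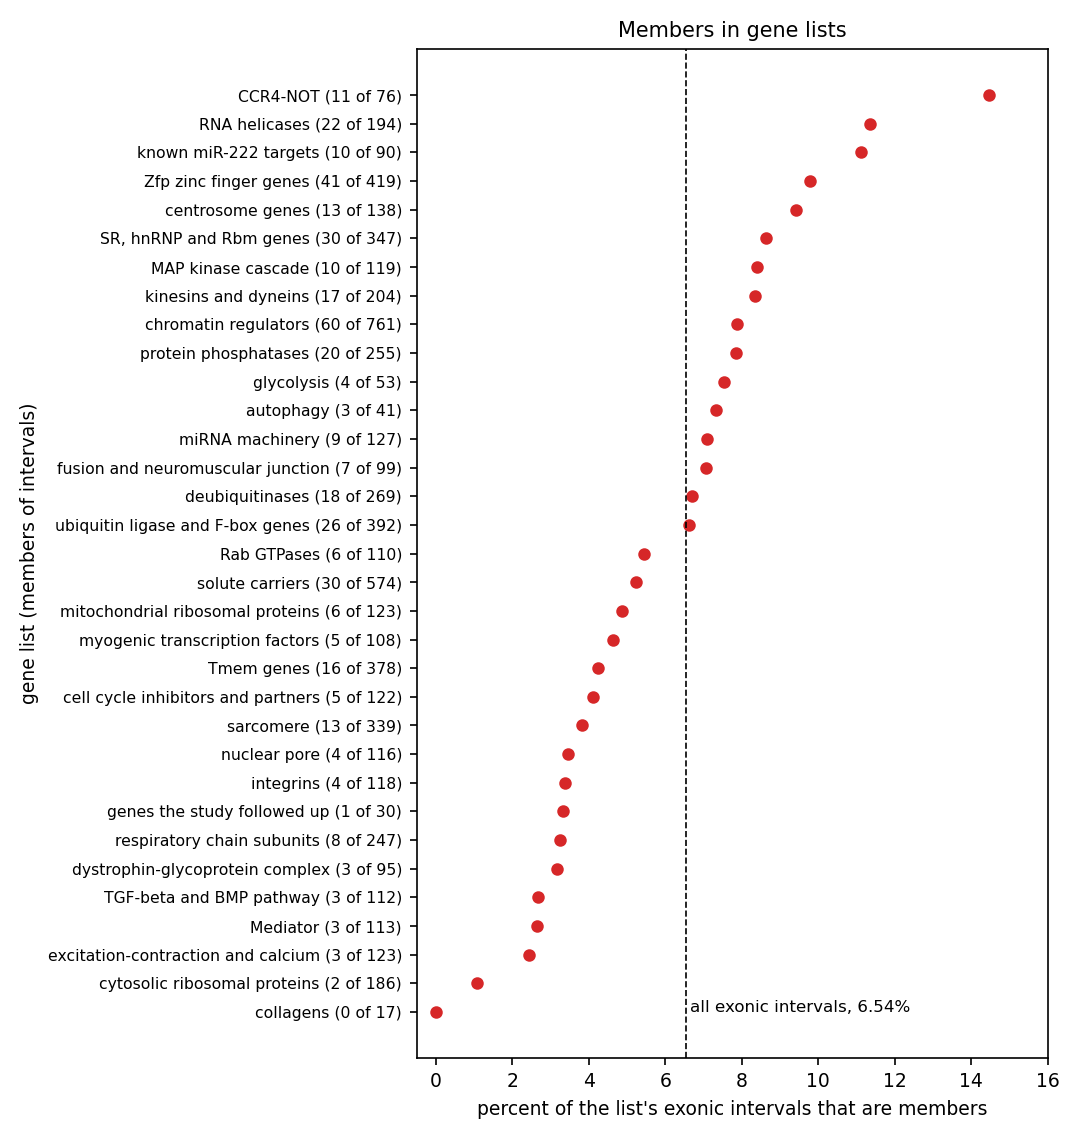
Percent of the exonic intervals of each gene list that are members (horizontal axis), with the number of members and intervals beside each name, and the value over all exonic intervals, 6.54%, as a dashed line. The lists run from 0 of 17 intervals in collagens to 11 of 76 (14.5%) in the CCR4-NOT complex.

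The CCR4-NOT complex shortens the poly(A) tails of mRNAs that RISC holds. It had members in 5 of its 11 genes, beside 16% of all genes with an exonic interval. That share rose from 4.45% in genes with 1 interval to 58.6% in genes with 9 or more. The median in this list was 4 intervals per gene. Cnot1, the scaffold of the complex, had 4, with scores from 20.2 to 29.9 in the first miR-222-IP and from 22.8 to 60.5 in the second miR-222-IP. Cnot2 had 3, among them 1 with 40.5 and 29.1 (chr10:116492197-116492553). Cnot6l, a deadenylase subunit, had 2, with 32.4 and 28.1 and with 25.8 and 36.8. Cnot4, a ubiquitin ligase, had 1 with 30.2 and 33.8, and Cnot11 had 1 with 29.5 and 47.2. In this list the second miR-222-IP exceeded the first by less than in members at large, with a median ratio of scores of 1.22 against 1.45.
The microRNA machinery had 9 members in 5 of 22 genes (22.7%, beside 16% of all genes), with a median of 5 intervals per gene. Besides Dicer1 these were Tnrc6b with 3, Tnrc6a with 22.3 and 34.8, Ago4 with 29.0 and 45.5 in its 3'UTR, and Ddx6, a helicase that represses translation, with 39.8 and 49.1. Tnrc6a and Tnrc6b code for the GW182 proteins that join Ago to CCR4-NOT, and the 3 members of Tnrc6b had 23.0 to 26.1 and 27.5 to 49.2.
No list was tested for enrichment.

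Muscle genes among the members differed from members at large in the score of the second miR-222-IP rather than of the first. The lists of sarcomere, myogenic transcription factors, fusion and neuromuscular junction, dystrophin complex and calcium handling, together with the myocyte markers, held 30 members in 23 genes. The share of intervals that were members was 7.07% in the fusion and junction list, 4.63% in myogenic transcription factors, 3.83% in the sarcomere, 3.16% in the dystrophin complex and 2.44% in calcium handling, beside 6.54% of all exonic intervals. Their scores in the first miR-222-IP were 20.1 to 35.3 with a median of 23.3, close to the 23.9 of all members, and in the second miR-222-IP they were 20.0 to 141 with a median of 52.8, against 36.3. The ratio of the 2 scores had a median of 2.44, against 1.45 in all exonic members. As given above, the second miR-222-IP is also the library with peaks over all myocyte markers, and the part of this difference in these members was not tested.
Mymk, a membrane protein needed for the fusion of myoblasts, had 23.2 and 141 (chr2:27061673-27062438). The acetylcholine receptor subunits Chrnd (24.4 and 132) and Chrna1 (26.4 and 110 in 1 member, 23.3 and 78.9 in the other) had the same pattern, as did Utrn, the utrophin of the neuromuscular junction, with 33.2 and 102. Agrn, which clusters the receptors, had 29.6 and 59.6 in its 3'UTR.
In the sarcomere, the troponin genes Tnnt2 (27.9 and 129) and Tnnt3 (20.6 and 101) and the tropomyosin genes Tpm1 (21.8 and 114) and Tpm2 (22.6 and 53.5) each had 1 member. Actn2, which anchors actin in the Z disc, had 28.9 and 80.9 and also 24.8 and 45.7. Neb had 26.9 and 62.7 and also 21.2 and 79.5. Ttn, the giant spring of the sarcomere, had 4 members of its 63 intervals, with 20.1 to 24.2 and 47.0 to 87.8. Myh3, an embryonic myosin, was different with 22.4 and 21.8. Control-IP replicate 3 had wide peaks over the members of Tnnt2 (146), Actn2 (163) and Myh3 (79.6). The other sarcomere members lie outside the regions it covers.
Factors of myogenic transcription had scores closer to each other. Mef2d had 21.4 and 20.1, Id3, an inhibitor of bHLH factors, 26.6 and 28.7, Tcf4 21.4 and 25.7 and Nfix 23.3 and 39.1, whereas Tcf12, a partner of MyoD, had 20.2 and 51.7. Camk2d, a calcium-dependent kinase, had 20.8 and 29.6 and also 23.7 and 20.0.

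The members with the largest smaller score of the 2 libraries are given last. Of these, 4 had scores over 50 in both libraries. Map3k20, a kinase of the MAP kinase cascade, had 54.2 and 53.2 in its 3'UTR (chr2:72403680-72404328), 603 bp from a control peak. Tmem47, a membrane protein of cell junctions, had 52.7 and 65.7 (chrX:81084206-81084549). Asf1a, a histone chaperone, had 51.1 and 52.0 (chr10:53607571-53608105), and control-IP replicate 3 had 72.4 over it. Erc1, a scaffold of vesicle release, had 51.0 and 77.7 (chr6:119761031-119761421). None of these held the 7-mer.
Others of the 20 were genes of the cytoskeleton and of transport. Wasl, an activator of actin nucleation, had 46.2 and 55.8, Rock2, a kinase of the actin cytoskeleton, 47.3 and 46.0, and the kinesins Kif2a and Kif5c 45.7 and 62.7, and 43.3 and 49.0. Copb1, a coat protein of Golgi vesicles, had 45.8 and 52.6, 193 bp from a control peak, and Kif5c lay 42 bp from one.
Genes of protein turnover were Psmd12 of the proteasome (45.8 and 57.2), Clpx of the mitochondrial protease (45.5 and 69.9) and Cul3, a scaffold of ubiquitin ligases (43.2 and 62.3). Bach1, a repressor regulated by heme, had 45.4 and 62.0 in the 3'UTR, and Kmt5b, a histone methyltransferase, 43.7 and 62.6. Lpgat1 (49.1 and 79.4), Agtpbp1 (45.8 and 44.2), Luzp2 (46.8 and 54.4), D6Wsu163e (57.0 and 45.4) and Gm10340 (50.9 and 48.3) completed the 20 with Arhgef6, a nucleotide exchange factor (43.6 and 48.8). Luzp2 is on the astrocyte and oligodendrocyte list given above. Besides Asf1a, control-IP replicate 3 had peaks over Rock2 (56.3), Agtpbp1 (58.6), Lpgat1 (63.2), Psmd12 (82.6), Kif2a (91.2), Cul3 (92.8) and Bach1 (147). Gm10340 lay in the regions it covers without such a peak, and the others of the 20 lay outside these regions.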

How the data were processed

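RISC-IP RNA of MSC myocytes was sequenced in 6 libraries, 4 control-IPs and 2 miR-222-IPs. SOAPSplice was used by the authors for alignment to mm10 and macs2 for peaks, and they deposited a list per library with position and −log10 p over 20. Whether column 5 is −log10 of a p-value or of a q-value is not marked in the lists, and it is read here as the p of the methods. Version and control track of macs2 are not given in the sources used here. Because the lists hold no read counts, the depth of each library is unknown, and no interval for the scores can be given.

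Peaks of 5 libraries that shared at least 1 bp or touched were merged, and an interval was given the highest score of each library. Control-IP replicate 3 was kept apart. Intervals were assigned to the GENCODE M21 gene with the longest exonic overlap (bedtools 2.31.1, Python 3.11.15, numpy 2.4.6, pandas 2.3.3). Sequences came from GRCm38.p6 through pysam 0.24.0. MicroRNA sequences came from RefSeq, and miR-133 was searched for with the seed of miR-133b. The merging and the search for sites passed 4 of 4 checks on simulated lists. Because the rule used the calls, no test was made, and counts stand beside those of all merged intervals. Members and lists were chosen with earlier results of these data known.

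Named are the 20 exonic members with the largest smaller score, the 12 with the 7-mer ranked in the same way (all but Rpp14 are described), known targets and followed-up genes, the 5 genes with most members, members of the muscle, RISC and CCR4-NOT lists, and those nearest the threshold. One known target and 2 gene lists are not reported here. No list repeats another, since at most 34 peaks of a pair of libraries had the same coordinates. Alternatives covered the threshold, merging, overlap, distance to control peaks, length of lists, control-IP replicate 3, seed length, annotation and each library in turn.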

Additional observations from a re-analysis of the deposited data

Results flagged for a closer look

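Control-IP replicate 3 stood apart from the other 3 control-IPs in 3 measures, by the gap of 1 library to the nearest of the others. Its median peak width was 32103 bp, its median −log10 p was 68.6 and its peaks covered 192 Mb. A gap as large as the bound for this flag arises by chance in about 1 of 20 groups. The observed gaps were past that bound. As a share of the range of the control-IPs, they were 0.998 for width, 0.934 for −log10 p and 0.981 for covered length. The 3 measures come from the same peaks and are not independent. The rule that chose the members did not use this library, and the counts with it are given beside the members above.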

How the results depend on the processing

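The members number 2633 in 1911 genes, with 9.66% of the exonic ones wholly in a 3'UTR and 2.95% holding the 7-mer. Thresholds of 30 and 50 gave 1712 and 854 intervals, and at 50 there were 734 genes and a 3'UTR share of 13.9%. An equal number of peaks per library gave 233 intervals, 213 genes, a 3'UTR share of 13.2% and a 7-mer share of 5.29% (12 of 227, exact interval 2.76 to 9.05%). The shares over all exonic intervals were not computed at that setting. Dropping intervals under control-IP replicate 3 gave 1494 and 1110. Leaving out each library gave 2931 to 15593 intervals, 2091 to 6538 genes, 3'UTR shares of 8.40 to 12.4% and 7-mer shares of 2.07 to 3.17%. The highest counts came without miR-222-IP replicate 1, and 5461 intervals were found without control-IP replicate 4 and 4025 without control-IP replicate 2. The 6-mer and 8-mer gave 10.9% and 0.903%. Within the first experiment alone, an alternative added after seeing the data, 5872 intervals in 3384 genes met the rule, and within the second 20224 in 7932, with a 7-mer share of 2.30%. Merging over 100 bp, the overlap of 50%, a distance of 500 bp to control peaks, the basic annotation and omission of muscle genes (also added later) kept counts within 1.5 times and shares within the counting interval. Of 126 named members, 37 were kept at a threshold of 30, 4 at 50 and 9 with equal numbers of peaks. The causes were not tested. No paired analysis was possible because the result comes from no test and the lists hold no counts; the rule within each experiment is given above. Scores without read numbers limit what a missing peak can show.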

Other observations

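Ordered by the ratio of the 2 scores, an order made after the values were seen, the members at the top included several muscle genes. Myh13, a myosin heavy chain, had 20.9 in the first and 176 in the second miR-222-IP, and Pgam2, the muscle form of a glycolytic enzyme, had 20.0 and 154. Ehd1 (21.2 and 138), Pdlim3 of the Z disc (20.7 and 134), Acta2 (22.8 and 146), Anxa2 (20.5 and 129), and S100a11 (42.0 and 178) followed the same order. Of the first 20, 6 were on the muscle lists used above, and the others included Akap2, Ppic, Dip2c and Rbm24. Altogether 447 members had a ratio of at least 2.

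At the other end stood 6 members with an identical score of 190 in the first miR-222-IP. These were Acbd3, Asph, Fam162a, Neo1, Psmd13 and Sf3a2, and their scores in the second miR-222-IP were 20.1 to 30.8. The same value was listed for 13 peaks of the first miR-222-IP. In the other lists the commonest score over 100 was shared by 2 to 9 peaks. After these 6 came Stag1, a subunit of cohesin, with 43.1 and 21.7, Homer2 with 41.3 and 22.1 and Ctnnb1, the beta-catenin gene, with 42.3 and 22.6.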
